A study of Homo sapiens with 2 samples.

Results

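The 8 genes HMGCS1, SQLE, IDI1, FDFT1, INSIG1, SREBF1, SREBF2 and SCD, which belong to cholesterol synthesis and to the SREBP pathway, were taken by name from the 44591 genes of the count table, and all 8 were found. They were compared between HSC-1 cells, a cell line of human cutaneous squamous cell carcinoma, that had received a control siRNA (siNC) or an siRNA against the long noncoding RNA LINP1 (siLINP1). Both cultures were transfected at about 70% confluency, kept for 6 h without serum and then for 24 h in medium with 10% serum, according to the sample labels, while the study's methods give a higher confluency and a longer time to extraction. Total RNA of each condition was sequenced as 1 library, so no difference has a replicate check, no p-value was computed, and every interval covers counting error only. A lower number of cells that express a gene and less of its RNA per cell cannot be told apart in such libraries.

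Cells make cholesterol from acetyl-CoA, first through the mevalonate pathway and then through squalene and a series of sterols. The transcription factors SREBP1 and SREBP2 switch on these enzymes, the uptake of lipoproteins and fatty acid synthesis when membrane sterol is low. When sterol is plentiful, INSIG proteins hold the SREBP precursors and their escort SCAP in the endoplasmic reticulum. Keratinocytes depend on the pathway for the lipids of the skin barrier.

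Reads counted on genes numbered 18829544 in siNC and 15383081 in siLINP1. The targeted LINP1 was read 167 times in siNC-treated and 23 times in siLINP1-treated cells. Of 10 squamous keratinocyte markers, 5 lay under 1 RPKM in both libraries (the squamous lineage factor TP63 had 6 and 8 reads). ITGB4 (5990 and 3962 reads) and LAMB3 (1958 and 1504 reads) gave most reads of the list. The others were read less: SFN had 264 and 138 reads, KRT14 had 243 and 87, and KRT6A had 31 and 45. The list's reads summed to 8548 in siNC and 5784 in siLINP1 (454 and 376 CPM). Those of 8 mesenchymal markers summed to 99401 and 66084 (5279 and 4296 CPM). VIM (61097 and 41992 reads) and SPARC (34148 and 21107 reads) gave most of this sum, and COL1A2 had 4 and 8 reads. The median level was 7.42 and 6.95 RPKM over the mesenchymal markers and 0.705 and 0.936 RPKM over the squamous markers. The part of these markers in the results was not tested. The scaling between libraries (median-of-ratios size factors) was computed over all genes. The log2 fold change always compares siLINP1 with siNC, and its 95% Clopper-Pearson interval follows from how the reads of the gene split between the libraries.

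The 8 genes were mostly lower in siLINP1-treated cells, by modest amounts. SCD and SREBF1 were lowest, at 0.662 and 0.666 of their siNC level, followed by HMGCS1, IDI1, SREBF2 and FDFT1, whereas SQLE and INSIG1 were not distinguishable from no difference at this depth. The interval lay below 0 for 6 of the 8 genes and above 0 for 0 of them. The same was true of 25.6% and 23.0% of the 19840 genes with at least 10 reads over both libraries, and of 40.7% and 31.7% of the 7071 genes with at least 1000 reads, a depth that each of the 8 genes passed. With scaling by total count the balance over the deeply read genes turned, to 30.9% below 0 and 40.9% above 0, while the 8 genes kept 6 intervals below 0. By more than 1.5-fold, 2 of the 8 genes were lower and 0 were higher, against 13.0% and 14.4% of the 19840 genes and 3.56% and 5.47% of the 7071 deeply read genes. SCD and SREBF1 lie just past the 1.5-fold limit, and scaling by the total count or by TMM factors left 0 of the 8 genes beyond it. The median log2 fold change of the 8 genes was -0.31, compared with -0.02 over the 19840 genes and -0.04 over the deeply read genes. The median is given as a description, because the genes were chosen with earlier results of these data known. Every pathway list below also holds genes with fewer than 1000 reads. Shares of the deeply read genes that are set beside a list are thus not matched for depth.

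**Figure D1:**
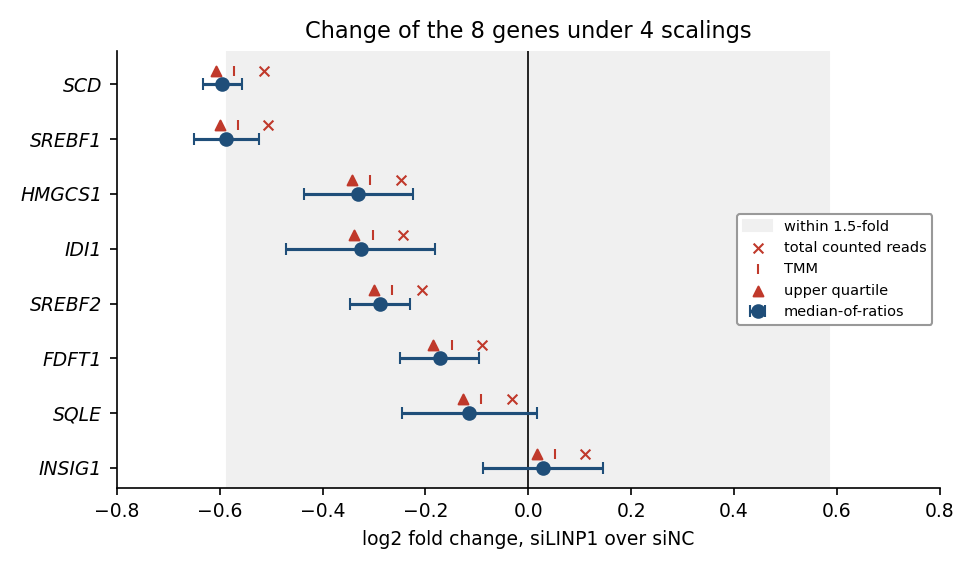
The horizontal axis gives the log2 fold change of siLINP1 over siNC and the rows give the 8 genes. Blue points with bars are the values and 95% counting intervals under median-of-ratios scaling, red marks are the values under 3 other scalings, and the grey band is the range within 1.5-fold; SCD and SREBF1 sit at the edge of the band (-0.60 and -0.59), and INSIG1 sits at 0.03.

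The transcription factors themselves were both lower, SREBF1 more so than SREBF2. SREBF1 encodes SREBP1, the form that acts mainly on fatty acid genes, and lies on the minus strand of chromosome 17 (GRCh37, 17714663 to 17740325). It was read 5550 times in siNC-treated and 3195 times in siLINP1-treated cells, which gives a log2 fold change of -0.59 (95% interval -0.65 to -0.52). A lower value was found for 3.51% of the deeply read genes. SREBF2 encodes SREBP2, which acts mainly on cholesterol genes, and lies on the plus strand of chromosome 22 (42229083 to 42303312). Its 5650 and 4001 reads give a log2 fold change of -0.29 (95% interval -0.35 to -0.23), and 21.3% of the deeply read genes were lower. The intervals of both genes do not overlap. Per length, SREBF1 stood above SREBF2 in siNC-treated cells (58.3 and 51.9 RPKM) and below it in siLINP1-treated cells (41.1 and 45.0 RPKM). The ratio of their RPKM values was 1.12 (95% interval 1.08 to 1.17) in siNC and 0.913 (95% interval 0.872 to 0.957) in siLINP1. This ratio, looked at after the values of both genes were seen, does not depend on the scaling between libraries, and its log2 change was -0.30 (normal approximation, 95% interval -0.38 to -0.21).

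INSIG1, which retains SCAP and the SREBP precursors and is itself an SREBP target, did not follow the factors. It lies on the plus strand of chromosome 7 (155089482 to 155101945) and was read 1275 times in siNC-treated and 1125 times in siLINP1-treated cells. The log2 fold change was 0.03 (95% interval -0.09 to 0.15). Under median-of-ratios scaling, counting error alone thus allows a change of 0.941-fold to 1.11-fold. With scaling by total count the value was 0.11, and the range moves with it. INSIG1 was the only one of the 8 genes with a value above 0, under each of the 4 scalings. Its RPKM ratio to SREBF1, also looked at after the values were seen, was 0.365 (95% interval 0.343 to 0.388) in siNC and 0.560 (95% interval 0.522 to 0.599) in siLINP1. The paralog INSIG2 was read far less, with 107 and 56 reads (log2 fold change -0.72, 95% interval -1.22 to -0.25).

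Among the other 9 genes that govern SREBP activity, 5 had intervals below 0 and 2 had intervals above 0, beside 40.7% and 31.7% of the deeply read genes. With scaling by total count or by TMM factors, 4 lay below 0. SCAP, the escort of the precursors to the Golgi, had 2528 and 1723 reads (-0.34, 95% interval -0.43 to -0.25). Of the proteases that release the active factor, MBTPS1 had 2154 and 2050 reads (0.14, 95% interval 0.05 to 0.23) and MBTPS2 had 1112 and 784 reads (-0.29, 95% interval -0.43 to -0.16), so the pair differed in direction. FBXW7, part of a ubiquitin ligase that marks nuclear SREBP for degradation, had the highest value of this list, with 407 and 469 reads (0.41, 95% interval 0.22 to 0.61). SCAP and both proteases were named after their values were seen. The whole list of 12 genes had a median of -0.18.

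HMGCS1 and IDI1 act in the mevalonate pathway, and both were lower by a similar amount. HMGCS1 condenses acetyl-CoA with acetoacetyl-CoA to HMG-CoA and lies on the minus strand of chromosome 5 (43287572 to 43313614). Read 1788 times in siNC and 1230 times in siLINP1, it had a log2 fold change of -0.33 (95% interval -0.44 to -0.22). IDI1 interconverts the isoprene units isopentenyl and dimethylallyl diphosphate and lies on the minus strand of chromosome 10 (1085359 to 1102656). Its 961 and 663 reads gave the same rounded value, -0.33 (95% interval -0.47 to -0.18).

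The other 5 genes of the mevalonate list went in both directions. ACAT2, which supplies acetoacetyl-CoA, had 922 and 527 reads, the lowest value of the list (-0.60, 95% interval -0.75 to -0.44). Mevalonate kinase (MVK) was slightly higher, with 861 and 829 reads (0.15, 95% interval 0.02 to 0.29). FDPS, which makes farnesyl diphosphate, had 1668 and 1562 reads (0.11, 95% interval 0.01 to 0.22). Over the 7 genes of the list, 4 had intervals below 0 and 2 had intervals above 0, beside 40.7% and 31.7% of the deeply read genes. The median of the 7 was -0.25. The 5 genes other than HMGCS1 and IDI1 had 2 intervals below 0, 2 above 0 and a median of -0.06. With scaling by total count, 1 of these 5 lay below 0 and 2 lay above 0.

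FDFT1 and SQLE, the enzymes that commit the pathway to sterols, were among the least changed of the 8 genes. FDFT1 joins a pair of farnesyl diphosphates to squalene and lies on the plus strand of chromosome 8 (11653082 to 11696818). Read 3135 times in siNC and 2406 times in siLINP1, it had a log2 fold change of -0.17 (95% interval -0.25 to -0.095). SQLE, which oxidises squalene and is a rate-limiting step, lies on the plus strand of the same chromosome (126010720 to 126034525). It had 1069 and 854 reads (-0.11, 95% interval -0.25 to 0.02), so a difference was not detectable at this depth.

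Several genes further down the pathway had lower values than FDFT1 and SQLE. Of 12 genes from squalene to cholesterol, 8 had intervals below 0 and 0 had intervals above 0, beside 40.7% and 31.7% of the deeply read genes. The median was -0.40, and the 10 genes other than FDFT1 and SQLE had a median of -0.43. Of these 10 genes, 7 had intervals below 0 and 0 above 0. With scaling by total count, 7 lay below 0 and 1 above 0. By more than 1.5-fold, 3 genes were lower, beside 13.0% of the 19840 genes and 3.56% of the deeply read genes. NSDHL, which takes part in the removal of the C4 methyl groups, had 504 and 268 reads (-0.70, 95% interval -0.92 to -0.49). HSD17B7, a ketoreductase of the same steps, had 403 and 232 reads (-0.59, 95% interval -0.83 to -0.35). DHCR7, which catalyses the last step of one branch to cholesterol, had 2201 and 1258 reads (-0.60, 95% interval -0.70 to -0.50). CYP51A1, the lanosterol demethylase, had 1216 and 1096 reads and the highest value of the list (0.06, 95% interval -0.06 to 0.18). NSDHL was the only one of these genes that stayed beyond 1.5-fold when the libraries were scaled by total count or by TMM factors.

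Over the mevalonate and squalene lists together, 12 of 19 enzymes had intervals below 0 and 2 had intervals above 0, beside 40.7% and 31.7% of the deeply read genes. Their reads summed to 21796 in siNC and 15708 in siLINP1, that is 1158 and 1021 CPM. The log2 ratio of the scaled sums was -0.26 (95% interval -0.29 to -0.23), and -0.18 with scaling by total count. The 15 enzymes that are not among the 8 genes gave a median of -0.40, with 9 intervals below 0 and 2 above 0.

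SCD, the desaturase that makes oleic and palmitoleic acid, was the most abundant of the 8 genes and the one with the lowest value. It lies on the plus strand of chromosome 10 (102106772 to 102124588). It was read 15428 times in siNC-treated and 8832 times in siLINP1-treated cells, which gives a log2 fold change of -0.60 (95% interval -0.63 to -0.56), and 3.24% of the deeply read genes were lower. Scaled to the total count, this is 819 CPM in siNC and 574 CPM in siLINP1. Its paralog SCD5 had 208 and 119 reads and a like value (-0.60, 95% interval -0.93 to -0.26).

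Most other genes of fatty acid synthesis were lower by less than SCD, and some had values above 0. Of the 17 genes of this list, 13 had intervals below 0 and 2 had intervals above 0, beside 40.7% and 31.7% of the deeply read genes. The median was -0.21. Of the 16 genes other than SCD, 12 had intervals below 0. With scaling by total count 8 of them did, and with TMM factors 10 did (30.9% and 37.7% of the deeply read genes). SCD and SCD5 were the 2 genes lower by more than 1.5-fold, of which 0 remained with scaling by total count or by TMM factors. FASN, the fatty acid synthase, had 18199 and 14741 reads, a value of -0.09 (95% interval -0.13 to -0.06) that shrank to -0.01 with scaling by total count. The RPKM ratio of SCD to FASN, looked at after both values were seen, was 1.31 (95% interval 1.28 to 1.34) in siNC and 0.927 (95% interval 0.903 to 0.952) in siLINP1. The malic enzyme ME1, a source of NADPH, had the highest value of the list, with 585 and 655 reads (0.37, 95% interval 0.21 to 0.54).

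**Figure D2:**
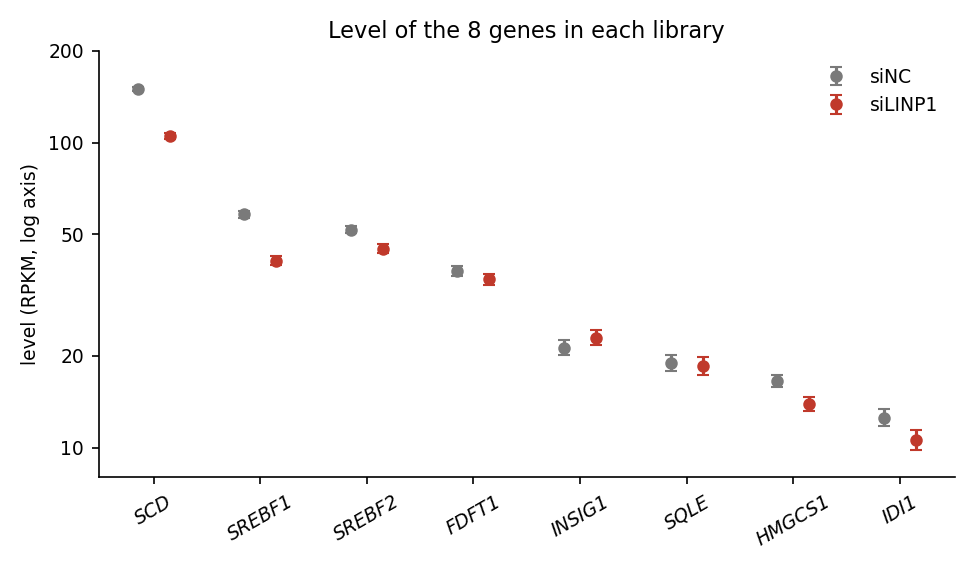
The vertical axis gives the level of each of the 8 genes in RPKM on a log axis, grey for siNC and red for siLINP1, with 95% exact Poisson intervals. SCD lies highest in both libraries (149.8 and 105.0 RPKM) and IDI1 lowest (12.5 and 10.6 RPKM), and SREBF1 and SREBF2 change places.

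Per length, the levels of the 8 genes ran in the order SCD, SREBF1, SREBF2, FDFT1, INSIG1, SQLE, HMGCS1 and IDI1 in siNC-treated cells. SCD, at 149.8 RPKM, stood 2.57-fold above SREBF1. FDFT1 had 38.0 RPKM in siNC and 35.7 RPKM in siLINP1. INSIG1 had 21.3 and 23.0 RPKM, SQLE had 19.0 and 18.6 RPKM, and HMGCS1 had 16.5 and 13.9 RPKM. INSIG1 and SQLE did not differ beyond their counting intervals in siNC, and each other pair of neighbours did. In siLINP1-treated cells the order differed by the exchange of SREBF1 and SREBF2 alone, and each pair of neighbours differed beyond the counting intervals.

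Of the genes of cholesterol uptake and transport, 3 are described. NPC2, which takes part in the export of cholesterol from lysosomes, had 1293 and 708 reads (-0.66, 95% interval -0.79 to -0.53). Of its partner NPC1, 1909 and 2081 reads were counted (0.33, 95% interval 0.24 to 0.42). GRAMD1A, a sterol transfer protein, had 3124 and 2508 reads (-0.11, 95% interval -0.18 to -0.03).

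Genes of storage, efflux and oxysterol sensing lay on both sides of 0. Of 10 genes with at least 10 reads, 2 had intervals below 0 and 4 had intervals above 0. The shares were 25.6% and 23.0% over all genes kept, and 40.7% and 31.7% over the deeply read genes. Several of the 10 genes, among them NR1H3, MYLIP, ABCG1 and ABCA1, were not deeply read, so neither background is matched for depth. The median of the list was 0.05. NR1H3, which encodes the sterol sensor LXRα, an activator of SREBF1 transcription, had 484 and 277 reads (-0.60, 95% interval -0.81 to -0.38). NR1H2, which encodes LXRβ, had 2099 and 2081 reads (0.20, 95% interval 0.11 to 0.29). MYLIP, a ubiquitin ligase that sterol-sensing nuclear receptors induce, had 306 and 369 reads (0.48, 95% interval 0.26 to 0.70). ABCG1, an exporter of cholesterol that the same receptors induce, was named after its value was seen. It had few reads, 59 and 28, and the lowest value of the list (-0.87, 95% interval -1.57 to -0.19), beyond 1.5-fold under each of the 4 scalings. ABCA1, another cholesterol exporter of the list, went the other way, with 396 and 470 reads (0.46, 95% interval 0.26 to 0.65). It was also named after its value was seen.

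The promoters were searched for 3 motifs on both strands: the sterol regulatory element TCACNCCAC, to which SREBP binds, the E-box CACGTG, which SREBP can also bind, and the CCAAT box, bound by NF-Y, a cofactor of SREBP. RefSeq sequences (GRCh38.p14), which reach from 250 bases before to 50 bases after a start site, were used for 9 starts of 6 of the 8 genes, and starts of 1 gene can overlap. The element TCACNCCAC was found in 1 of the 9 promoters, that of SREBF2, and in 1.13% of all 35116 promoters. The E-box was found in 1 of the 9, that of INSIG1, and in 7.26% of all promoters. A CCAAT box was found in 6 of the 9 and in 34.6% of all promoters. In the promoters of the synthesis enzymes, 21 starts of 16 genes, the CCAAT box occurred in 15, the E-box in 3 and TCACNCCAC in 0. A match of letters is a description and not a bound site. A missing match does not show that a gene lacks such an element, since only these spellings and bases were searched.

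Of the genes below, SREBF2 holds the sterol element, SCD had the lowest value, HMGCS1 stands for the mevalonate pathway, and INSIG1 is the gene that was not lower. Each sequence gives the 250 bases before the start site, 5′ to 3′ on the strand of the gene, with the matches in capitals (ATTGG is CCAAT on the other strand). They lie at chr22:41832855-41833104 on the plus strand (SREBF2), chr10:100346983-100347232 on the plus strand (SCD), chr5:43313413-43313662 on the minus strand (HMGCS1) and chr7:155297628-155297877 on the plus strand (INSIG1).
SREBF2: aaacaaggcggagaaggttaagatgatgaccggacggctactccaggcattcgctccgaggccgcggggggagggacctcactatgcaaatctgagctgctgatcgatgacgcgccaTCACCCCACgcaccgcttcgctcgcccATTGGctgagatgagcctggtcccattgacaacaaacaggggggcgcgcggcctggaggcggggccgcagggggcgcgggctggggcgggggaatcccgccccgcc
SCD: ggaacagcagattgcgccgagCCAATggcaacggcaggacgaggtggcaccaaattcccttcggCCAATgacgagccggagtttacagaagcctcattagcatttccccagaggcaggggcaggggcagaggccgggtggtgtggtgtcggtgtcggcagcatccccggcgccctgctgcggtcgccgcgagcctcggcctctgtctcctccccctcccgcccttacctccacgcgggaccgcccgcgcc
HMGCS1: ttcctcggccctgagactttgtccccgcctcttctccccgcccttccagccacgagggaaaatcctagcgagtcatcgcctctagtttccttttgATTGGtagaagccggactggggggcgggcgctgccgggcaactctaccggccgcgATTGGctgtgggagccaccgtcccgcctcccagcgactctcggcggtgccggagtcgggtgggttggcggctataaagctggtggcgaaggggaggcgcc
INSIG1: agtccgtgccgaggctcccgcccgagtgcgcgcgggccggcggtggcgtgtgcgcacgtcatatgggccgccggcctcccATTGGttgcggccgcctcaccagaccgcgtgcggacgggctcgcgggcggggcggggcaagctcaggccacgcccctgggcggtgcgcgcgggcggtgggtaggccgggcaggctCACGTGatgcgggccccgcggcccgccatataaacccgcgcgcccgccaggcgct

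In SREBF2 the sterol element began 133 bases before the start and the CCAAT box lay downstream of it. SCD carried 2 CCAAT boxes and the HMGCS1 promoter shown carried 2, while the other of its 2 listed starts had 0 matches of the 3 motifs. INSIG1 carried 1 together with the E-box. SREBF1 held no match of the 3 motifs in its 1 listed promoter, and the promoter of its other main isoform was not analysed here.

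Other genes overlap several of the 8 genes, and the reads inside the overlaps were not measured. Of the counting, the strand setting is not given in the sources used here, so reads from opposite strands may have been mixed. Antisense genes overlapped HMGCS1 (ENSG00000261604.1, 127 and 98 reads), SREBF2 (ENSG00000184068.2, 198 and 92 reads) and IDI1 (IDI2-AS1, 15 and 20 reads). At its 3′ end SREBF1 overlaps RAI1, a gene of the opposite strand with 3358 and 2232 reads, by 105 bases. The microRNA genes inside SREBF1 and SREBF2, MIR33B and MIR33A, had at most 2 reads in a library, too few for a comparison. The pseudogene SCDP1 had 2 and 3 reads and IDI2 had 53 and 42 reads.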

How the data were processed

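RNA sequencing compared HSC-1 cells under siNC and under siLINP1, with 1 library per condition. According to the methods of the study, the authors used an Illumina HiSeq instrument, Tophat2 for alignment to GRCh37/hg19 and then HTSeq on the aligned reads; the submitters' processing notes also name HISAT2, HISAT and Bowtie2. The deposited counts are raw reads per gene. The RPKM values that the authors deposited beside them divide each count by the table's gene length and the library's total count. Versions, gene annotation and counting mode are not given in the sources used here. The 12 remaining columns of per-sample values in the table were left out.

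Counts were divided by median-of-ratios size factors (1.08 for siNC and 0.930 for siLINP1), and genes with at least 10 reads over both libraries were kept. The log2 fold change had no pseudocount, and its 95% interval (Clopper-Pearson, on the share of reads in siLINP1) was tested on simulated data. The simulated counts held counting error alone, as the interval assumes, so the test cannot show how replicate libraries would vary. RPKM levels had exact Poisson intervals. The depth limits the precision to the intervals given. A gene was counted as higher or lower past 1.5-fold, a criterion of the study. Alternatives were scaling by total count, TMM (edgeR, factors only) and upper-quartile factors, pseudocounts of 1 and 5, minima of 1 and 100 reads, a 2-fold limit, protein-coding genes and the ratio of RPKM values. Intervals under the other scalings were added after seeing the data.

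The 8 genes and the 7 lists were chosen with earlier results of these data known. Of the lists, genes past 1.5-fold with at least 100 reads and, per list, the gene with most reads and those with the highest and lowest value among genes with at least 100 reads were named by rule, and others are marked where named, apart from the near copies and neighbours of the 8 genes, which the rule also names. Some genes of the lists are not reported here and enter no count, median or sum of a list; the direction of the summed reads of uptake and transport depends on them, so no count or median of that list is given. No gene was ranked by likeness, since 2 libraries give 1 difference per gene. The tools were R 4.3.3 with edgeR 4.0.16, and Python 3.11.15 with scipy 1.17.1, numpy 2.4.6, matplotlib 3.10.9 and pandas 2.3.3.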

Additional observations from a re-analysis of the deposited data

How the results depend on the processing

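Scaling by total count, which equals the ratio of the deposited RPKM values, raised every log2 fold change by 0.08, and TMM raised it by 0.02. With total count the values were -0.51 for SCD, -0.51 for SREBF1, -0.21 for SREBF2 and -0.090 for FDFT1, each outside its counting interval, and -0.18 for the summed synthesis enzymes. With total count and with TMM, 0 of the 8 genes were lower by more than 1.5-fold, and with a 2-fold limit 0 were. The interval lay below 0 for 6 of the 8 genes under each of the 4 scalings, and for 11 of the 19 synthesis enzymes under total count, where 30.9% of the deeply read genes had such an interval and 40.9% one above 0. Past 1.5-fold, total count gave 3314 genes higher and 2069 lower. A minimum of 1 read gave 7048 genes higher and 6456 lower by more than 1.5-fold, and a minimum of 100 reads gave 1163 and 903. Pseudocounts, upper-quartile factors and protein-coding genes alone left the values of the 8 genes, where they apply, and the medians of the 7 lists within their intervals. Of 48 recomputed counts of lower genes past 1.5-fold, in the 6 lists that had any, 19 moved by over 1.5 times, among them 6 of 6 under total count, 6 of 6 under a 2-fold limit and 5 of 6 under TMM. No paired analysis was possible because each condition had 1 library, and for the same reason no replicate could be left out.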

Other observations

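The isoprenoid branch, which draws on the mevalonate pathway for protein prenylation, dolichol and ubiquinone, held genes on both sides of 0. Of its 13 genes, 5 had intervals below 0 and 4 had intervals above 0. The shares were 25.6% and 23.0% over all genes kept, and 40.7% and 31.7% over the deeply read genes. Several of the 13 genes, among them FNTB and PGGT1B, were not deeply read, so neither background is matched for depth. The median log2 fold change of the branch was -0.10, and 0 of its genes were past 1.5-fold in either direction. FNTB, the beta subunit of farnesyltransferase, had 321 reads in siNC-treated cells and 188 in siLINP1-treated cells (-0.56, 95% interval -0.83 to -0.30). PGGT1B, the beta subunit of a related transferase for the geranylgeranyl group, had 313 and 362 reads (0.42, 95% interval 0.20 to 0.64). RABGGTB, which prenylates Rab proteins, had most reads of the branch, with 2074 and 1687 (-0.09, 95% interval -0.18 to 0.005).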
